A study of Homo sapiens with 6 samples.

Results

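The nuclear genes for oxidative phosphorylation were followed in SAMD4A knockdown and control H7 cells, an established human embryonic stem cell line. They were taken as the protein-coding rows of the deposited count table, outside the mitochondrial chromosome, whose symbols begin with NDUF, UQCR, COX and a digit or ATP5, or are SDHA to SDHD, SDHAF1 to SDHAF4, CYC1 or CYCS. This rule, which used no measured value, found 113 genes among 60664 rows, of which 19966 are protein-coding. They comprise 89 subunits (37 of complex I, 4 of complex II, 10 of complex III, 19 of complex IV and 19 of complex V), 21 assembly factors, the electron carrier cytochrome c and 2 readthrough loci. Poly-A RNA was sequenced from 3 libraries of the SAMD4A knockdown line and 3 libraries of control H7 cells, all grown in the same maintenance medium without differentiation. The series title calls the control wild type, and the labels name no construct behind the knockdown. The study's question was the role of SAMD4A in self-renewal and in the choice of lineage. SAMD4A belongs to the Smaug proteins, which bind and repress messages.

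Oxidative phosphorylation makes ATP in the inner mitochondrial membrane. Complexes I and II feed electrons from NADH and succinate into ubiquinone, complex III passes them to cytochrome c, and complex IV reduces oxygen. Complexes I, III and IV pump protons, and complex V, the ATP synthase, uses their return to make ATP. Mitochondrial DNA encodes part of every complex except complex II, and nuclear genes encode all others, together with assembly factors that help build the complexes without being part of them. Primed human embryonic stem cells are known for relying strongly on glycolysis while keeping a working respiratory chain.

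Promoters of many of these genes carry matches to the motifs of NRF1 and of the ETS factor GABP, which are known activators of respiratory genes. RefSeq promoter windows of GRCh38.p14, from 250 bases before to 50 bases after the start, were found for 91 of the 113 genes and searched on both strands. The NRF1 motif (GCGC, any base, then TGCGC) was in 22 of the 91 genes (24.2%) and in 6.98% of all 27305 genes in the table. The ETS motif (CCGGAAGT) was in 16 genes (17.6%), against 4.95% of all genes, and the YY1 motif (AAGATG directly followed by GCGGC) in 6 genes (6.59%), against 1.04%. Among the 44 genes with a window that were called higher in knockdown, 10 held the NRF1 motif, 12 the ETS motif and 3 the YY1 motif. The stretches below show what such matches look like upstream of 4 genes that were higher in knockdown and of NDUFS1, which was not. They end before the gene start of both annotations and are written from 5′ to 3′ on the gene's strand, with the match in capitals. NDUFB4 and COX17 show a pair of NRF1 matches each, of which the match nearer the gene start is on the opposite strand. UQCRQ, COX5B and NDUFS1 show an ETS match, on the opposite strand in NDUFS1.
NDUFB4 (chr3:120596128-120596327, plus strand): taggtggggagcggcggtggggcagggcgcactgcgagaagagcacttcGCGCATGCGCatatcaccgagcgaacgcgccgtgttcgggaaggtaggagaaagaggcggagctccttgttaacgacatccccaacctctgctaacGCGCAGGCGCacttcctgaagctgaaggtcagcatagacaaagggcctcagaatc
COX17 (chr3:119677455-119677534, minus strand): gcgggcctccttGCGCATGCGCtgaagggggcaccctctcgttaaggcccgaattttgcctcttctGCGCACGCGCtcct
UQCRQ (chr5:132866550-132866629, plus strand): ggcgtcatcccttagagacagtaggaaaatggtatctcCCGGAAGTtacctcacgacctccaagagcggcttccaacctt
COX5B (chr2:97645982-97646061, plus strand): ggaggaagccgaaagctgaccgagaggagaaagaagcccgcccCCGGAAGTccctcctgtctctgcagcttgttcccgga
NDUFS1 (chr2:206159510-206159629, minus strand): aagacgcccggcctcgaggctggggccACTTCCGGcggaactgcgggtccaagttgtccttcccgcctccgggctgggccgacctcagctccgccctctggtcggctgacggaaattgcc
A match is a description of letters and does not show that a factor binds there.

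The libraries held between 19270688 and 21355171 counts. SAMD4A, the targeted gene, had 27.4, 28.5 and 28.5 CPM (TMM-scaled counts per 1000000 counts of a library) in knockdown libraries, against 52.2, 56.0 and 49.8 CPM in control libraries, which gives a log2 ratio of knockdown over control (the log2 fold change) at -0.90 ± 0.07 (SE, edgeR adjusted p = 9.0e-08). The 8 markers of primed stem cells summed to 9954 to 10401 CPM in knockdown libraries and to 8557 to 8805 CPM in control libraries, and all 8 were above 1 CPM in every library. Without DNMT3B, which averaged 2728 CPM in knockdown and 1296 CPM in control libraries, the other 7 summed to 7265 to 7634 CPM in knockdown and 7263 to 7508 CPM in control libraries. DNMT3B, POU5F1 and L1TD1 were called higher, and NANOG, PODXL and SALL4 lower. The 5 neuroectoderm markers summed to 19.3 CPM in knockdown replicate 1 and to 1.63 and 1.62 CPM in knockdown replicates 2 and 3, against 13.4 to 16.8 CPM in control libraries. Knockdown replicates 2 and 3 thus stood apart, while knockdown replicate 1 was near the control libraries. The fibroblast list summed to 665 to 719 CPM in knockdown and 782 to 835 CPM in control libraries, mainly from THY1, COL1A1 and COL1A2, while DCN was at 0 in every library and LUM at or near 0. Rows of the mitochondrial chromosome took 5.03% ± 0.14 of the counts in knockdown and 3.39% ± 0.08 in control libraries (SD, n = 3 each). With these rows left out of the scaling, 54 nuclear respiratory genes were called higher and 6 lower, the same numbers as in the main analysis below. Beyond scaling, the part of this difference in the results below was not tested.

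Nuclear respiratory genes were mostly higher in knockdown, by small amounts, and subunits carried the difference. Of the 113 genes 104 passed the filter on low counts, and 54 of these (51.9%) were called higher and 6 (5.77%) lower at an edgeR adjusted p under 0.05. Calls were common across the whole table: 51.7% of 17258 tested genes were called, 26.1% higher and 25.6% lower, or 28.8% higher and 27.1% lower among protein-coding genes alone. The median log2 fold change was 0.24 over the 104 genes and -0.01 over all tested genes, and it was 0.23, 0.22 and 0.21 in the 3 knockdown libraries taken singly. In 58 of the 104 genes every knockdown library was above every control library, and in 7 every one was below. Over all tested genes these shares were 28.9% and 29.4%. Without knockdown replicate 1 the calls were 56 higher and 6 lower. The lower calls numbered 3 without knockdown replicate 3 and 2 without control replicate 2. As a share of all counts the 113 genes took 0.787% ± 0.015 in knockdown and 0.740% ± 0.001 in control libraries (SD, n = 3 each). In bulk RNA, fewer cells of a type and less RNA per cell cannot be told apart.

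Subunits and the 21 assembly factors matched by symbol did not behave alike in their counts. Of 82 tested subunits 48 (58.5%) rose and 2 (2.44%) fell, with a median log2 fold change of 0.27. Of 21 tested assembly factors 5 (23.8%) rose and 4 fell, where 26.1% and 25.6% of all genes did, with a median of -0.02. Scaled by total counts only, 27 subunits were called higher and 6 lower, and 2 assembly factors higher and 8 lower, with medians of 0.11 and -0.17. Under that scaling 15.7% of all tested genes were called higher and 37.1% lower, with a median of -0.17, near that of the assembly factors. By median, subunits had 830.5 exon bases and 54.5 CPM, and assembly factors 1669 bases and 23.7 CPM. The difference between the classes, and the part of length and abundance in it, was not tested. Of 37 tested assembly factors outside the symbol rule, described below, 15 rose and 7 fell, with a median of 0.10. The most even gains were in complexes II, III and V, where 3 of 4, 8 of 10 and 14 of 18 tested subunits rose and 0 fell. The medians were 0.57 for complex II, 0.36 for complex III and 0.27 for complexes IV and V each, against 0.18 for complex I.

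**Figure D1:**
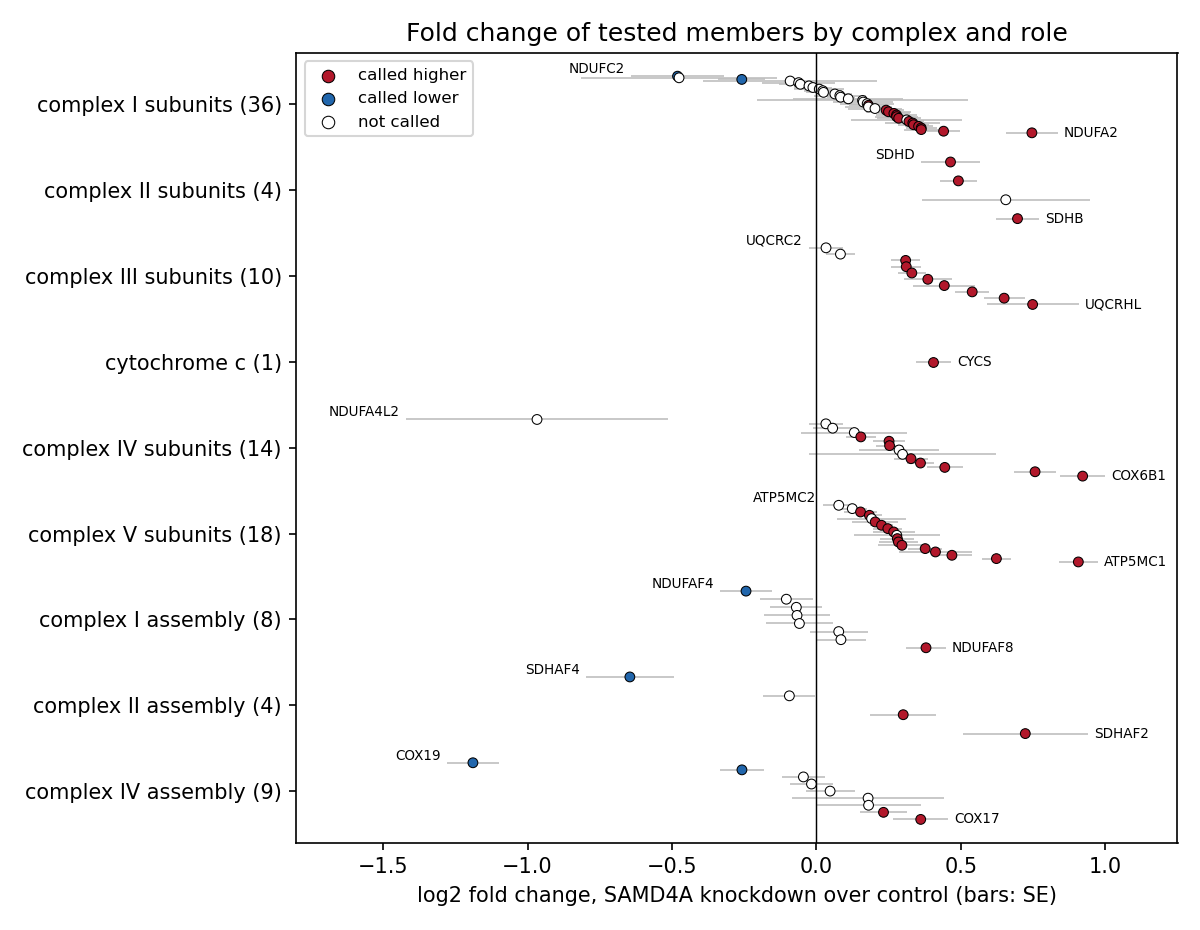
Log2 fold change (knockdown over control, x axis) of the 104 tested genes, a point each with its SE, grouped by complex and role, with filled points for genes called by edgeR. Subunits of complexes II, III, IV and V lie mainly right of 0, while the 3 groups of assembly factors spread to both sides, down to COX19 at -1.19; with scaling by total counts the points move left together, and complex IV then has 1 lower call.

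Scaling sets how many of these genes count as higher. TMM scaling, used throughout, centres the bulk of genes, and with total counts only the median of all genes moved to -0.17. The median of the nuclear respiratory genes then was 0.08, still above that of all genes. Under total counts 30 of them were called higher and 14 lower, where 15.7% of all tested genes were called higher and 37.1% lower. Under the same scaling complex II and complex III kept 3 and 8 higher calls, while complex V had 4 and complex I had 7 higher and 5 lower. Of the 60 calls, 36 were also made under total counts.

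**Figure D2:**
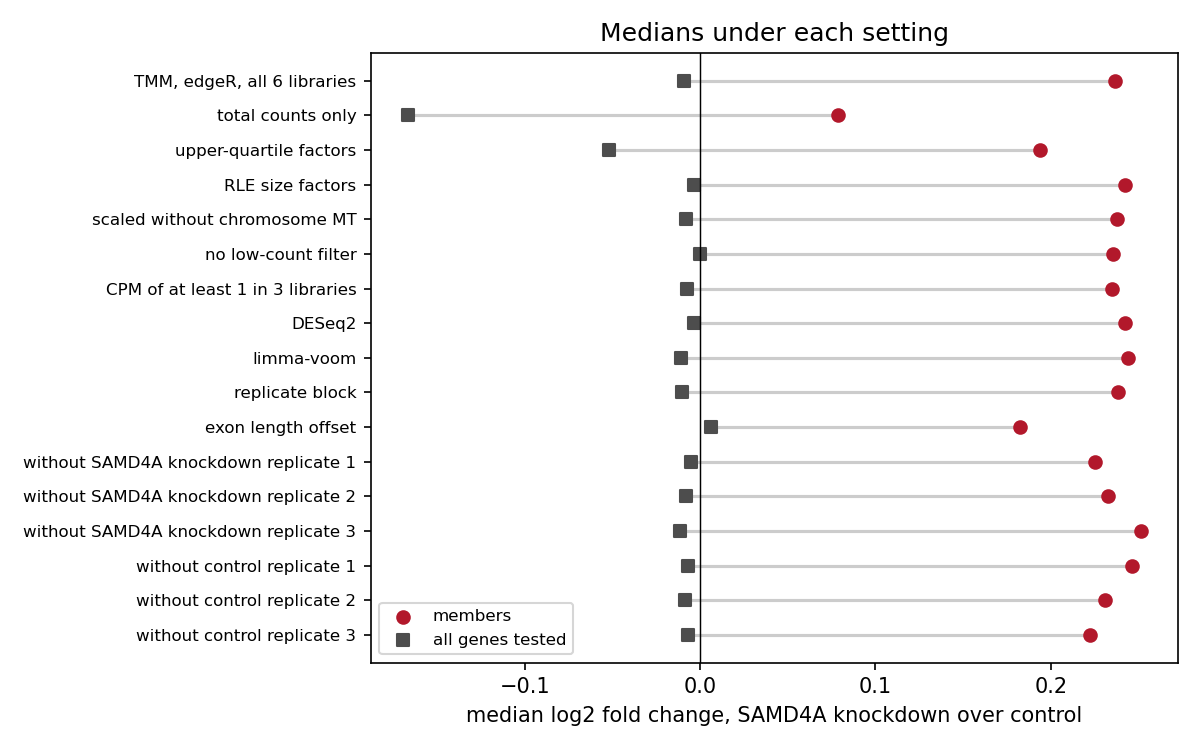
Median log2 fold change (x axis) of the nuclear respiratory genes (circles) and of all genes tested (squares) under the main analysis and the 16 alternatives. The circle lies right of its square in every setting, at 0.08 against -0.17 for total counts and at 0.18 against 0.01 for the exon length offset.

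Complex I, the NADH dehydrogenase, is built of a catalytic core and of accessory subunits around it. Of 29 tested accessory subunits 14 rose and 2 fell, and of the 7 nuclear core subunits 1 rose and 0 fell, with medians of 0.20 and 0.02, where 26.1% of all tested genes rose and 25.6% fell. The difference between core and accessory subunits was not tested. By position, 10 of 20 membrane arm subunits rose and 1 fell, and 4 of 15 tested matrix arm subunits rose and 1 fell. NDUFA2, a small accessory subunit of the electron input module (ENSG00000131495, chromosome 5, 140638740 to 140647771), had 38.2, 35.9 and 33.5 CPM in knockdown libraries, against 23.6, 20.4 and 20.1 CPM in control libraries. All 3 knockdown libraries stood above all controls, and the log2 fold change was 0.75 ± 0.09 (SE, edgeR adjusted p = 5.3e-06). It shares 13.04% of its exon bases with IK and TMCO6 on the opposite strand, whose reads cannot be told apart without the strand setting. NDUFB4, a membrane arm subunit with the pair of NRF1 matches shown above, had 82.6, 88.0 and 87.4 CPM in knockdown libraries, against 61.3, 62.5 and 66.3 CPM in control libraries (log2 fold change 0.44 ± 0.06, edgeR adjusted p = 1.2e-05). The table holds 12 pseudogene rows named after NDUFB4, and how reads were split among them is not known. NDUFS5, another membrane arm subunit and the complex I gene with the highest level per exon length, had 152, 137 and 145 CPM in knockdown libraries and 113, 109 and 117 CPM in control libraries. NDUFAB1, the mitochondrial acyl carrier protein found in both arms, had 97.1, 91.6 and 84.4 CPM in knockdown libraries and 68.4, 71.2 and 72.9 CPM in control libraries. Both had a log2 ratio of 0.36 (SE 0.05 and 0.06) with no overlap between the groups.

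The core subunits, which carry the flavin, the iron-sulfur clusters and the quinone site, moved little. NDUFS8, an iron-sulfur subunit next to the quinone site, had 80.3, 72.9 and 74.3 CPM in knockdown libraries, against 67.1, 63.1 and 62.3 CPM in control libraries, and was the core subunit that passed the test (0.24 ± 0.06, edgeR adjusted p = 0.0036). NDUFS1, the largest core subunit, had 121, 117 and 113 CPM in knockdown libraries and 113, 125 and 119.9 CPM in control libraries. Its groups overlapped, at a log2 ratio of -0.03 ± 0.05. NDUFV1, which binds NADH, and NDUFS7 also overlapped, at 0.02 ± 0.06 and -0.06 ± 0.07, and these 3 genes changed sign under some alternatives. Under total counts NDUFS1 (-0.18) and NDUFS7 (-0.21) were called lower, the call of NDUFS8 ended (0.08), and the median of the core subunits was -0.13. NDUFS3 did not pass the test (0.18 ± 0.08, edgeR adjusted p = 0.073). It passed without knockdown replicate 3, without control replicate 1 and with no low-count filter. NDUFV2 was at 0.70, 1.02 and 1.19 CPM in knockdown libraries and 1.09, 1.23 and 1.70 CPM in control libraries, too low for a firm value (-0.48 ± 0.34).

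Both complex I subunits that fell lost their call when certain single libraries were left out. NDUFS4, an accessory subunit of the electron input module that is mutated in Leigh syndrome, had 26.1, 23.0 and 24.2 CPM in knockdown libraries, against 28.95, 29.7 and 29.06 CPM in control libraries. The groups did not overlap and the log2 fold change was -0.26 ± 0.08 (edgeR adjusted p = 0.015), and the adjusted p became 0.074 without knockdown replicate 2 and 0.060 without control replicate 2. NDUFC2, in the membrane arm, had 5.68, 6.36 and 4.43 CPM in knockdown libraries and 7.23, 8.37 and 7.43 CPM in control libraries (-0.48 ± 0.16, edgeR adjusted p = 0.022). Its call ended without knockdown replicate 3 (edgeR adjusted p = 0.105) and without control replicate 2 (0.098). A readthrough locus, NDUFC2-KCTD14, covers 16.3% of its exon bases and was at 0 counts in all 6 libraries. That locus shares 100% of its own exon bases with KCTD14 and NDUFC2 on the same strand. How shared reads were counted is not known, so the 0 does not show whether readthrough messages are present.

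Complex II, succinate dehydrogenase, is the only respiratory complex encoded wholly in the nucleus, and also a step of the TCA cycle. SDHB, its iron-sulfur subunit (ENSG00000117118, chromosome 1, 17018722 to 17054032), had 59.1, 59.3 and 57.7 CPM in knockdown libraries, against 39.9, 34.1 and 34.6 CPM in control libraries. The knockdown libraries lay close together and far above every control, with a log2 ratio of 0.70 ± 0.07 (edgeR adjusted p = 1.4e-06). SDHC, a membrane anchor that binds heme, had 78.6, 81.4 and 76.1 CPM in knockdown libraries and 51.8, 57.3 and 58.9 CPM in control libraries (0.49 ± 0.06, edgeR adjusted p = 1.1e-05). SDHD, the other anchor, had 34.3, 36.8 and 29.7 CPM in knockdown libraries and 21.4, 26.7 and 24.99 CPM in control libraries (0.46 ± 0.10, edgeR adjusted p = 0.0012). Neither anchor overlapped between the groups, and the 3 genes were called under every alternative run. The table holds 4 pseudogene rows named after SDHC and 6 after SDHD. SDHA, the catalytic flavoprotein, was counted at 37, 44 and 44 counts in knockdown libraries and 31, 34 and 20 counts in control libraries. Per exon length SDHA averaged 1.72 TPM (counts per exon base, scaled to 1000000 in each library) in knockdown and 1.28 TPM in control libraries, where SDHB averaged 124 TPM in knockdown and 90.2 TPM in control. The SDHA log2 fold change of 0.66 ± 0.29 did not pass the test (edgeR adjusted p = 0.071; 0.035 without knockdown replicate 1). The table also counts its pseudogene SDHAP1, with 201, 255 and 207 counts in knockdown libraries and 169, 130 and 217 counts in control libraries. SDHAP3 had 199, 194 and 199 counts in knockdown libraries and 234, 204 and 185 counts in control libraries. Another same-strand coding row also lies over the span of SDHA. The SDHA row may not hold all reads of the gene, and the cause of its low counts was not tested.

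Complex III, the cytochrome bc1 complex, rose in its small subunits and in the Rieske protein. UQCRQ, a small subunit that binds ubiquinone, with the ETS match shown above, had 49.1, 54.0 and 50.4 CPM in knockdown libraries, against 32.2, 33.8 and 31.9 CPM in control libraries. The groups were well apart, with a log2 ratio of 0.65 ± 0.07 (edgeR adjusted p = 2.1e-06). UQCRQ shares 20.79% of its exon bases with GDF9 on the opposite strand. UQCRH, the hinge protein between cytochrome c1 and cytochrome c, had 209.9, 191 and 187 CPM in knockdown libraries and 141, 124 and 139 CPM in control libraries (0.54 ± 0.06, edgeR adjusted p = 2.3e-06). UQCRHL, an intronless copy of UQCRH, had 12.999, 10.2 and 10.4 CPM in knockdown libraries and 7.13, 5.17 and 7.71 CPM in control libraries (0.75 ± 0.16, edgeR adjusted p = 0.0011). Since the copies are near-identical, the split of reads between UQCRH and UQCRHL is uncertain. UQCRFS1, the Rieske iron-sulfur protein, had 168, 154 and 159 CPM in knockdown libraries and 129, 123 and 134 CPM in control libraries (0.31 ± 0.05, edgeR adjusted p = 0.00013). UQCR11 (0.44 ± 0.11), UQCR10 (0.39 ± 0.08), UQCRB (0.33 ± 0.05) and the core protein UQCRC1 (0.31 ± 0.05) also passed, and all 8 calls were made under every alternative. CYC1, the heme protein cytochrome c1, had 145, 138 and 144 CPM in knockdown libraries and 141, 133 and 129 CPM in control libraries. Its groups overlapped, at 0.08 ± 0.05 (edgeR adjusted p = 0.18), and total counts turned its sign (-0.075). UQCRC2, the other core protein, stood at 0.03 ± 0.06, or -0.13 under total counts.

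CYCS, cytochrome c itself, carries electrons from complex III to complex IV and also triggers the apoptosome when released. It had 257, 293 and 261 CPM in knockdown libraries, against 188, 209 and 216 CPM in control libraries, with no overlap and a log2 ratio of 0.40 ± 0.06 (edgeR adjusted p = 4.8e-05). The table lists 41 pseudogene rows named after CYCS.

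Complex IV, cytochrome c oxidase, held one of the 2 largest rises, beside ATP5MC1 of complex V. COX6B1, a subunit on the intermembrane side (ENSG00000126267, chromosome 19, 35648323 to 35658782), had 93.7, 78.8 and 78.6 CPM in knockdown libraries, against 46.7, 40.8 and 45.0 CPM in control libraries. Knockdown libraries were close to double the controls without overlap, with a log2 ratio of 0.92 ± 0.08 (edgeR adjusted p = 1.3e-07). The table holds 7 pseudogene rows named after COX6B1, and how reads were split among them is not known. COX7B, a small membrane subunit encoded on chromosome X (77899440 to 77907376), had 80.3, 70.1 and 74.7 CPM in knockdown libraries, against 46.3, 40.1 and 46.8 CPM in control libraries (0.76 ± 0.07, edgeR adjusted p = 6.4e-07). COX7A2 followed at 0.44 ± 0.06 and COX7C at 0.36 ± 0.05, both small membrane subunits with no overlap between groups. NDUFA4, named for complex I but now assigned to complex IV, had 159, 166 and 146 CPM in knockdown libraries and 116, 131 and 129 CPM in control libraries (0.33 ± 0.06, edgeR adjusted p = 0.00033). COX4I1, the regulatory subunit, had 265, 253 and 259.6 CPM in knockdown libraries and 228, 217 and 208 CPM in control libraries (0.25 ± 0.05, edgeR adjusted p = 0.00035). COX5B, whose ETS match is shown above, also passed (0.25 ± 0.06), as did COX5A (0.15 ± 0.05, edgeR adjusted p = 0.022). Under total counts the COX4I1, COX5B and COX5A calls ended, the last at -0.0039. The COX5A call also ended with upper-quartile factors, with the exon length offset and without knockdown replicate 2, control replicate 1 or control replicate 2 (adjusted p from 0.056 to 0.111). COX6C (0.06 ± 0.07) and COX7A2L (0.03 ± 0.06), a relative of COX7A2 that links complexes III and IV, did not pass, and their signs turned under total counts (-0.10 and -0.13). COX8A (0.29 ± 0.14) missed the threshold and passed only without knockdown replicate 3 (edgeR adjusted p = 0.014).

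Isoforms of cytochrome c oxidase that other tissues use were at or near the detection limit. Of 7 such genes, 5 failed the low-count filter (COX4I2, COX6A2, COX7A1, COX7B2 and COX8C), and COX7B2, a testis form, had 0 counts in all 6 libraries. Levels per exon length (TPM) rank genes within a library. By that measure COX4I1 averaged 730.0 ± 9.29 TPM in knockdown and 720.4 ± 31.0 TPM in control libraries, while COX4I2 averaged 0.06 TPM in each (n = 3 each). COX6B1 averaged 368 ± 34.5 TPM in knockdown and 229 ± 15.1 TPM in control libraries, and its testis form COX6B2 averaged 2.85 ± 0.90 TPM in knockdown and 2.71 ± 0.94 TPM in control libraries. COX6B2 overlapped between the groups (0.30 ± 0.32). NDUFA4L2, a hypoxia-induced relative of NDUFA4, had 0.55, 0.46 and 0.38 CPM in knockdown libraries and 1.47, 0.59 and 0.66 CPM in control libraries. Its groups did not overlap, but -0.97 ± 0.45 did not pass the test (edgeR adjusted p = 0.088; 0.049 under total counts), and control replicate 1 stood apart.

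Complex V, the ATP synthase, rose broadly and by small amounts. The catalytic F1 subunits ATP5F1B and ATP5F1A are its most abundant messages by count. ATP5F1B had 1058, 1043 and 1011 CPM in knockdown libraries, against 878, 907 and 876 CPM in control libraries, a full gap at a log2 ratio of 0.23 ± 0.04 (edgeR adjusted p = 0.00022). ATP5F1A had 734, 719 and 688 CPM in knockdown libraries and 632, 644 and 610.0 CPM in control libraries (0.18 ± 0.04, edgeR adjusted p = 0.0020). Both calls ended under total counts, at 0.07 and 0.03. ATP5F1E, the small epsilon subunit, rose further (0.47 ± 0.07), as did ATP5PD of the peripheral stalk (0.38 ± 0.06), and both kept their call under total counts. On the opposite strand ATP5F1E shares 23.18% of its exon bases with TUBB1, and ATP5PD 19.07% with KCTD2 and RN7SL573P. ATP5MF, a membrane subunit, had 12.4, 17.1 and 14.8 CPM in knockdown libraries and 11.2, 11.4 and 10.6 CPM in control libraries (0.41 ± 0.12, edgeR adjusted p = 0.012), and did not pass without knockdown replicate 2 (0.074) or under total counts. ATP5IF1, the inhibitor that stops the enzyme from running backwards, had 106, 103 and 115 CPM in knockdown libraries and 103, 92.7 and 95.9 CPM in control libraries. Its log2 fold change of 0.15 ± 0.06 (edgeR adjusted p = 0.039) was lost without knockdown replicate 3, control replicate 2 or control replicate 3 (adjusted p from 0.097 to 0.17). It was also lost with upper-quartile factors (0.11, adjusted p = 0.135), with the exon length offset (0.066, adjusted p = 0.36) and under total counts, where the value was -0.01.

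The c ring, the rotor that protons turn, is made of identical copies of a protein encoded by 3 genes that differ only in their cleaved leader peptide. ATP5MC1 (ENSG00000159199, chromosome 17, 48892765 to 48895871) had 65.5, 68.8 and 64.8 CPM in knockdown libraries, against 35.5, 33.3 and 37.4 CPM in control libraries, with a log2 ratio of 0.91 ± 0.07 (edgeR adjusted p = 3.6e-08). ATP5MC3 had 235, 226 and 214 CPM in knockdown libraries, against 144, 143 and 151 CPM in control libraries (0.62 ± 0.05, edgeR adjusted p = 7.2e-08). ATP5MC2 had 182, 157 and 165 CPM in knockdown libraries and 161, 158 and 157 CPM in control libraries, with overlap (0.08 ± 0.06, edgeR adjusted p = 0.26; -0.08 under total counts). By TPM, ATP5MC1 supplied 22.6% ± 1.497 of the c subunit messages in knockdown and 15.1% ± 0.72 in control libraries (SD, n = 3 each). ATP5MC3 supplied 19.1% ± 0.58 in knockdown and 15.5% ± 0.37 in control libraries, and ATP5MC2 58.3% ± 1.96 in knockdown and 69.3% ± 1.02 in control libraries. The library ranges did not overlap for any of the 3 shares, and ATP5MC2 remained the most abundant form in all 6 libraries. With 3 libraries against 3, an exact permutation test of a share allows no p below 0.10. The table holds 8 pseudogene rows named after ATP5MC1 and 4 after ATP5MC2, and none after ATP5MC3.

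**Figure D3:**
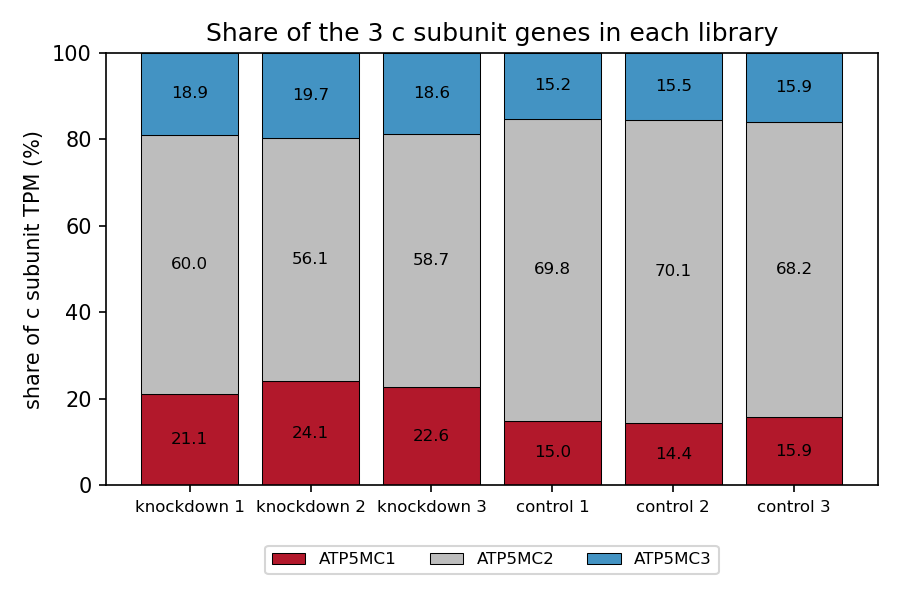
Share of the summed TPM of ATP5MC1, ATP5MC2 and ATP5MC3 (y axis, percent) in each of the 3 knockdown and 3 control libraries, as stacked bars. ATP5MC1 takes 21.1 to 24.1% in knockdown and 14.4 to 15.9% in control libraries, and ATP5MC2 takes 56.1 to 60.0% in knockdown and 68.2 to 70.1% in control libraries.

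Assembly factors split in both directions, and the largest fall of all was among them. COX19, a copper-binding assembly factor of complex IV (ENSG00000240230, chromosome 7, 898778 to 975549), had 16.04, 14.4 and 17.7 CPM in knockdown libraries, against 36.5, 36.8 and 36.4 CPM in control libraries. The knockdown libraries were below all controls, the log2 fold change was -1.19 ± 0.09 (edgeR adjusted p = 4.0e-08), and the call was made under every alternative. COX19 shares 21.4% of its exon bases with ADAP1 on the same strand, which did not pass the test (-0.45 ± 0.24, edgeR adjusted p = 0.13) at a mean of 2.14 CPM in knockdown and 2.92 CPM in control libraries. COX17, the copper chaperone that hands copper to the same complex, with the pair of NRF1 matches shown above, had 23.4, 24.02 and 23.3 CPM in knockdown libraries and 17.3, 20.8 and 17.0 CPM in control libraries. It rose by 0.36 ± 0.10 (edgeR adjusted p = 0.0053), a call that ended under total counts (0.20). COX17 shares 17.63% of its exon bases with POPDC2 on the same strand. COX15, an enzyme of heme A synthesis, rose by 0.23 ± 0.08 (edgeR adjusted p = 0.028), a call lost under total counts, with upper-quartile factors (0.066), with the replicate block (0.0502) and without knockdown replicate 2, control replicate 1 or control replicate 2 (0.070 to 0.105). COX15 shares 25.59% of its exon bases with AL133353.2 on the same strand. COX18, which helps insert a mitochondrially encoded subunit of complex IV, had 33.4, 34.5 and 30.9 CPM in knockdown libraries and 37.0, 40.5 and 40.7 CPM in control libraries. It fell by 0.26 ± 0.08 (edgeR adjusted p = 0.011), and did not pass without knockdown replicate 3 (0.062) or control replicate 2 (0.057). COX10, COX11, COX14, COX16 and COX20 did not pass, at -0.04 to 0.18.

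Among the complex II factors SDHAF4, which protects free SDHA and helps it join SDHB, had 7.82, 10.1 and 7.67 CPM in knockdown libraries, against 13.2, 11.0 and 15.9 CPM in control libraries. It fell by 0.65 ± 0.15 (edgeR adjusted p = 0.0022) with no overlap. SDHAF2, which is needed to attach the flavin to SDHA, had 4.88, 5.65 and 3.56 CPM in knockdown libraries and 2.57, 2.71 and 3.27 CPM in control libraries. It rose by 0.72 ± 0.22 (edgeR adjusted p = 0.011), on few counts, and its adjusted p was 0.060 without knockdown replicate 2. SDHAF2 shares 30.46% of its exon bases with AP003108.2 on the same strand. SDHAF1, which serves the iron-sulfur clusters of SDHB, rose by 0.30 ± 0.11 (edgeR adjusted p = 0.037), and lost its call when any of knockdown replicates 2 and 3 or control replicates 2 and 3 was left out (0.056 to 0.175), and with the replicate block (0.0565), the exon length offset (0.0519), upper-quartile factors (0.072) or total counts. SDHAF3 did not pass, but was called lower under total counts (-0.25). Of the 8 complex I factors, NDUFAF8, which stabilises the assembly factor NDUFAF5, had 46.8, 46.9 and 44.2 CPM in knockdown libraries and 35.3, 35.7 and 35.0 CPM in control libraries (0.38 ± 0.07, edgeR adjusted p = 0.00027). NDUFAF4 had 30.2, 32.1 and 27.8 CPM in knockdown libraries and 32.3, 35.1 and 39.3 CPM in control libraries (-0.24 ± 0.09, edgeR adjusted p = 0.032), a call lost without knockdown replicate 3 (0.145), control replicate 2 (0.077) or control replicate 3 (0.177), and with the replicate block (0.0577). The other 6 did not pass, at -0.10 to 0.08.

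**Figure D4:**
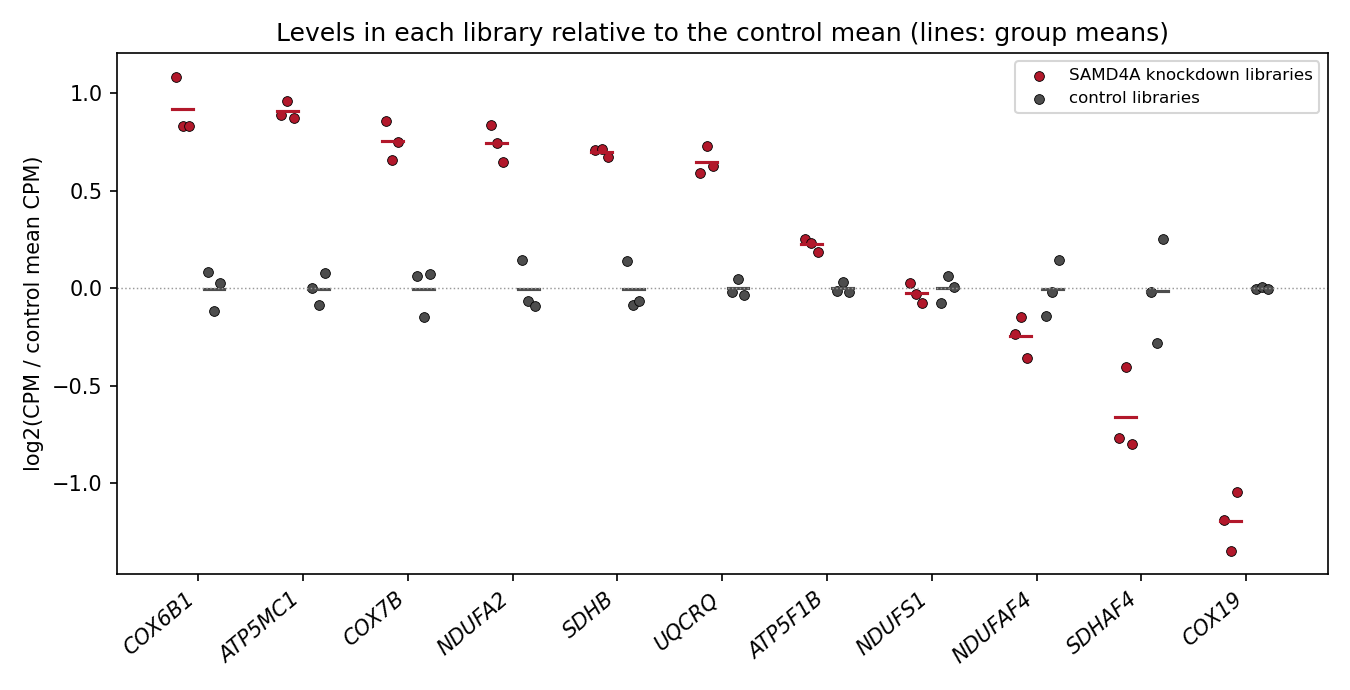
Level of 11 genes in every library as log2 of its CPM over the control mean (y axis), with knockdown points left of control points and a line at each group mean. COX6B1 to ATP5F1B show every knockdown library above every control, NDUFS1 overlaps, and NDUFAF4, SDHAF4 and COX19 show every knockdown library below.

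Levels per exon length spread widely, also among subunits of the same complex. ATP5F1B averaged 1266 ± 27.0 TPM in knockdown and 1274 ± 28.4 TPM in control libraries (SD, n = 3 each). In control libraries COX4I1 averaged 720.4 TPM, UQCRH 634 TPM and NDUFS5 575 TPM, while SDHA had 1.28 TPM, NDUFA9 1.13 TPM and NDUFB8 4.62 TPM. Of 80 subunits, leaving out tissue isoforms and gene copies, 18 have another protein-coding row on the same strand over their span. Of these 18, 11 were below 25 TPM in control libraries, with a median of 22.1 TPM. Of the 62 without such a row, 3 were below 25 TPM, with a median of 161 TPM. The low ones with an overlapping row were ATP5MG, ATP5PO, COX6A1, NDUFA7, NDUFA9, NDUFA11, NDUFA13, NDUFB5, NDUFB8, NDUFC2 and SDHA, and the others were NDUFA5, NDUFV2 and NDUFV3. In GENCODE 29 NDUFV2 shares 28.44% of its exon bases with AP005263.1 on the same strand, which the count of coding rows leaves out. The deposited exon lengths of NDUFA5 and NDUFV3 are 5496 and 5725 bases, and a long exon length lowers TPM. This limit of 25 TPM was chosen after the values were seen. Of the 17 tested subunits with an overlapping row 5 rose and 1 fell, against 42 and 1 of 62 without, and their medians were 0.25 and 0.27. Over all tested genes 26.1% rose and 25.6% fell. TPM values carry no TMM factor, so changes between groups are read from CPM.

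**Figure D5:**
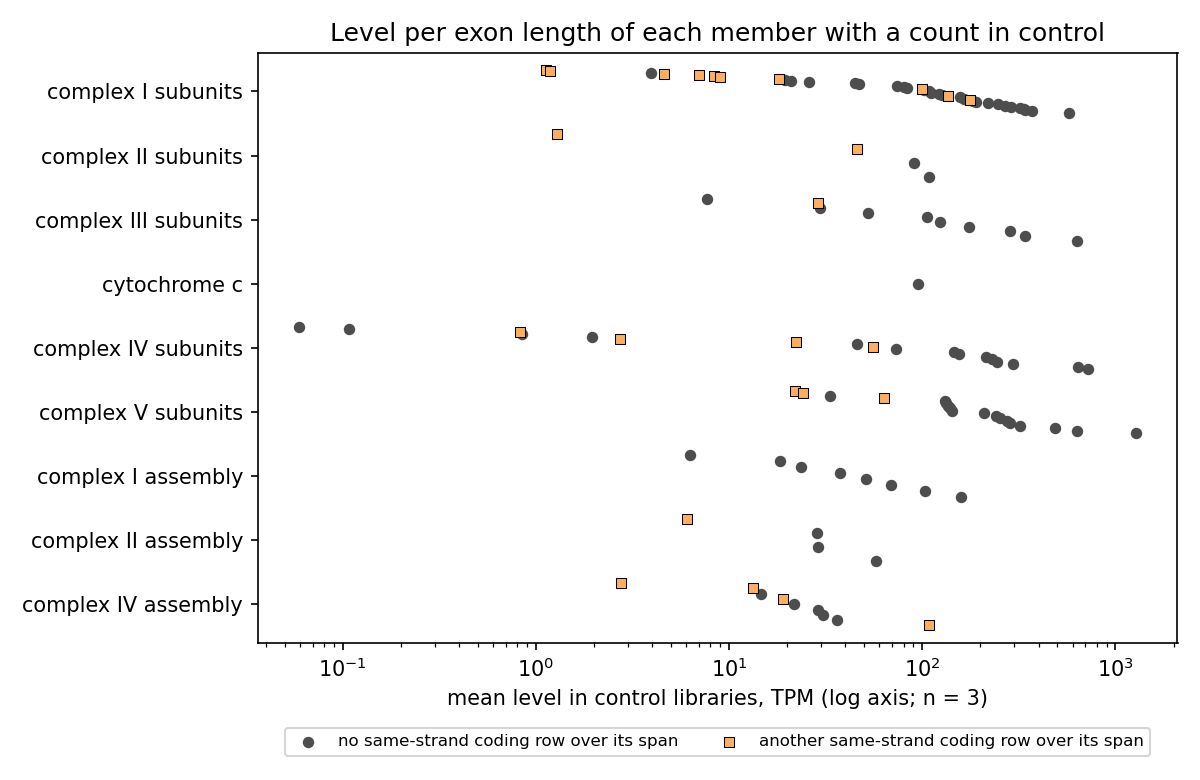
Mean level in control libraries in TPM (log x axis, n = 3) of each gene with a count in control, by complex and role, with squares for genes that have another same-strand coding row over their span. Many squares lie at the low end, such as SDHA at 1.28 TPM and NDUFA9 at 1.13 TPM.

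Respiratory genes are short, and short abundant genes in general were higher in knockdown. The 104 tested genes had a median exon length of 1005 bases and a median of 43.6 CPM, against 2953 bases and 17.8 CPM over all tested genes. Of 212 other protein-coding genes no longer than 1005 bases and at or above 43.6 CPM, 72.6% rose and 6.13% fell, with a median log2 fold change of 0.28. Of 4812 longer genes at the same abundance, 45.4% rose and 24.4% fell, with a median of 0.10. The share of respiratory genes that rose, 51.9%, was below the 72.6% of short abundant genes, though not every respiratory gene is short or abundant. Of 678 other protein-coding genes no longer than 1005 bases, at any tested abundance, 37.5% rose and 13.4% fell, with a median of 0.15. The part of length in the results was not tested beyond the offset given here. Among the tested respiratory genes, the 52 no longer than the median had a median log2 fold change of 0.27 with 59.6% called higher, and the 52 longer ones had 0.17 with 44.2%. With an offset for exon length in the edgeR fit, 47 rose and 6 fell, at a median of 0.18 against 0.01 for all genes.

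Genes of the wider pathway were read from lists of known members. Of 40 assembly factors outside the symbol rule 37 were tested, 15 rose and 7 fell, with a median of 0.10, or 8 and 12 under total counts, where the median was -0.06. For all lists given here, the shares over all tested genes were 26.1% higher and 25.6% lower, or 15.7% and 37.1% under total counts. COA3, which steadies the first subunit of complex IV while it is being made, had 28.4, 30.8 and 30.6 CPM in knockdown libraries and 15.2, 16.2 and 16.4 CPM in control libraries (0.91 ± 0.09, edgeR adjusted p = 4.3e-07). SCO2, a copper chaperone of complex IV (0.82 ± 0.12), and OXA1L, the insertase of the inner membrane (0.76 ± 0.06), also rose. COA8 (-0.50 ± 0.18), CMC1 (-0.48 ± 0.10), TACO1 (-0.46 ± 0.07), TTC19 (-0.41 ± 0.06) and ATPAF1, an assembly factor of the F1 head (-0.32 ± 0.06), fell. Of 18 genes of the TCA cycle and pyruvate dehydrogenase 9 rose and 1 fell, with a median of 0.13, or 5 and 6 under total counts, where the median was -0.03. OGDH (0.66 ± 0.05) and DLAT (0.63 ± 0.06), parts of the oxoglutarate and pyruvate dehydrogenase complexes, rose most, and SUCLG2 fell (-0.40 ± 0.07). All 13 messages encoded in mitochondria rose, from MT-ND1 at 0.40 ± 0.05 to MT-ATP6 at 0.99 ± 0.04, with a median of 0.70, or 0.54 under total counts, where all 13 passed too.

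Known regulators of respiratory genes were called in both directions, as were all tested genes (26.1% higher and 25.6% lower). Of 12 listed, 5 rose and 3 fell, with a median of 0.15. Under total counts the numbers were again 5 and 3, with a median of -0.01, against 15.7% and 37.1% of all genes. ESRRA, a nuclear receptor that activates respiratory genes, had 45.9, 52.1 and 43.8 CPM in knockdown libraries and 33.2, 34.0 and 30.8 CPM in control libraries (0.53 ± 0.08, edgeR adjusted p = 5.6e-05). GABPA, the DNA-binding chain of GABP, had 43.7, 48.2 and 44.5 CPM in knockdown libraries and 30.9, 34.0 and 34.7 CPM in control libraries (0.45 ± 0.08, edgeR adjusted p = 0.00014). PPRC1 (0.45 ± 0.05), a coactivator, the mitochondrial RNA polymerase POLRMT (0.39 ± 0.05) and YY1 (0.30 ± 0.05) also rose. GABPB1, the partner of GABPA, fell (-0.24 ± 0.07), as did the coactivator PPARGC1B (-0.42 ± 0.07) and TFB1M (-0.32 ± 0.07), which modifies mitochondrial ribosomal RNA. NRF1 (0.05 ± 0.09) and TFAM (0.15 ± 0.06), which packages mitochondrial DNA, did not pass. No relation between these regulators and the levels above was tested.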

How the data were processed

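The authors deposited raw counts per gene for 6 libraries, made with a stranded poly-A kit per the labels' protocols. Alignment tools and build (HISAT2, HTSeq, GRCh38) are taken from the submitters' processing notes, while the sources used here state neither their versions nor how strand was handled, so reads of overlapping genes on opposite strands cannot be told apart. Exon lengths come from a column of the deposited table. Nothing says that replicates are separate cultures, and the p-values therefore rest on a spread between libraries that could be purely technical.

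Counts were fitted over all genes in R 4.3.3 with edgeR 4.0.16 (filterByExpr, TMM, two-sided quasi-likelihood test), and p-values were adjusted by Benjamini-Hochberg across all 17258 genes at a threshold of 0.05. The biological coefficient of variation was 7.47%. Within-group pairs of libraries differed by more than sampling noise (chi-square per degree of freedom 2.78 to 7.85, the highest values being those of knockdown replicate 1), so none was counted as the same library deposited again. TPM is counts per exon base scaled to 1000000 in each library. Exon overlaps were read from GENCODE 29. In simulated counts for this comparison (16983 genes) 100 genes were changed by 1.5 fold and 100 by 2 fold. Of these, 67% and 79% were called by edgeR, with 7 false among 153 calls. In the real data 51.7% of tested genes were called, so these rates need not carry over. Alternatives used DESeq2 1.42.0, limma 3.58.1, other scalings and filters, an exon length offset, a replicate block and each library left out.

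The genes, lists and tests were chosen with earlier results of these data known. Genes named were SAMD4A, up to 4 rises and 4 falls per class with a mean of at least 1 CPM, isoform sets, the catalytic, carrier and core subunits, and the highest gene per length in each class. 1 core subunit is not reported here. Others named were chosen after their values were seen.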

Additional observations from a re-analysis of the deposited data

How the results depend on the processing

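With total counts only, 2704 of all tested genes (15.7%) were called higher and 6410 (37.1%) lower. Of the nuclear respiratory genes 30 were higher and 14 lower (subunits 27 and 6, assembly factors 2 and 8). By class, complex I had 7 higher and 5 lower, complex IV 5 and 1, and complex V 4 higher, while complex I factors had 3 lower, complex II factors 1 higher and 2 lower, and complex IV factors 0 higher. The median was 0.079, against 0.19 with upper-quartile factors and 0.18 with the exon length offset. Upper-quartile factors left 3 assembly factors higher, 1 each for complexes II and IV, and the offset left 1 complex II factor higher. The replicate block left 3 assembly factors higher, 1 each for complexes II and IV, and 0 complex I factors lower; over all genes it gave 4241 higher and 4193 lower, and among the respiratory genes 51 and 5. Same-numbered libraries did not deviate together (correlations of -0.02, -0.01 and -0.04), so no pairing by number was seen. Deviations taken within groups of 3 libraries cannot decide whether the numbers pair the samples, and the labels state no pairing.

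Leaving out each library in turn gave 2 to 6 respiratory genes lower, 0 to 2 subunits lower (all in complex I), 2 to 6 assembly factors higher and 2 to 4 lower. It gave 1 to 2 complex I factors higher and 0 to 1 lower, 0 to 2 complex II factors higher, and 1 to 2 complex IV factors higher and 1 to 2 lower. The median ran from 0.22 to 0.25, and 49 to 59 of the 60 calls were made again. Signs turned under total counts for ATP5IF1 (-0.0053), ATP5MC2 (-0.081), COX6A1 (-0.026), COX7A2L (-0.13), COX5A (-0.0039), COX6C (-0.10), CYC1 (-0.075), UQCRC2 (-0.13) and NDUFV1 (-0.13). They turned under upper-quartile factors for COX7A2L (-0.0101), UQCRC2 (-0.0096) and NDUFV1 (-0.0185), and under the exon length offset for NDUFS1 (0.049) and COX6C (-0.0085). Among fits with a library left out, they turned for COX6A1 (-0.020 to 0.28), COX6C (-0.0129 to 0.104), UQCRC2 (-0.0211 to 0.0894), NDUFS1 (-0.061 to 0.0089), NDUFS7 (-0.10 to 0.015) and NDUFV1 (-0.039 to 0.065). Of 60 respiratory genes followed singly under each setting, 30 kept direction and side of the threshold under all 16 alternatives and 40 under the 15 other than total counts. The cause of these shifts was not tested beyond what each setting changes. Genes under about 5 CPM, such as SDHA, SDHAF2, NDUFV2 and NDUFA4L2, have few counts and wide errors, and the spread is known from 3 libraries a group.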
